A study of Mus musculus with 6 samples.

Results

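The retinoblastoma pocket protein family of the mouse comprises 3 genes, Rb1, Rbl1 and Rbl2, which encode the retinoblastoma protein, p107 and p130. Their transcripts were followed in embryonic stem cells that had received mimics of the miR-290 microRNA cluster. All probe sets whose only gene symbol in the platform annotation was one of these 3 were taken, which gave 8 probe sets for 3 of the 18194 genes with such a probe set. Rb1 had 2, Rbl1 had 4 and Rbl2 had 2. In the first group of 3 samples, undifferentiated cells of the Dicer -/- line 27H10 (27H in the sample titles) were transfected with mimics of the mmu-miR-290 cluster (miR-290 mimic). In the second group of 3 samples, the same cells received an siRNA against Renilla luciferase, the mRNA of a reporter enzyme that is foreign to mouse cells (control siRNA). All 6 samples lack Dicer, the enzyme that cuts microRNA precursors, come from this single line and were taken 24 h after transfection. Each was read on 1 Affymetrix array. Which members of the cluster were given, and at what dose, is not stated in the labels. Samples without transfection or with intact Dicer were not analysed here, and the labels record no batch.

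Pocket proteins bind E2F transcription factors and, while bound, repress E2F target genes. Cyclin D and cyclin E kinases phosphorylate them in G1 phase, which frees E2F and lets the cell enter S phase. The retinoblastoma protein binds mainly the activating E2F factors, whereas p107 and p130 bind mainly E2f4 and E2f5 and join the MuvB proteins in the DREAM repressor complex. In mouse embryonic stem cells, Rbl2 has been reported as a target of the miR-290 cluster and as a repressor of the de novo DNA methyltransferase genes.

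A microRNA finds its targets largely through its seed, bases 2 to 8 from its 5′ end. The 3p arms of the cluster that share a seed core are shown because this seed was returned to the cells, as far as the labels' naming of the cluster goes. Of the 13 mature arms on the plus strand of chromosome 7 in RefSeq's GRCm38.p6 table, 5 carried AAGUGC at bases 2 to 7, and capitals mark bases 2 to 8:
mmu-miR-290a-3p: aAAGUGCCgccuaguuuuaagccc
mmu-miR-291a-3p: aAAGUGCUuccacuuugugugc
mmu-miR-291b-3p: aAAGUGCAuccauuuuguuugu
mmu-miR-294-3p: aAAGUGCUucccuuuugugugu
mmu-miR-295-3p: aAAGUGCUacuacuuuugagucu
These arms lie between miR-290a-3p at chr7:3218674-3218697 and miR-295-3p at chr7:3220815-3220837. They differ at base 8, where miR-291a, miR-294 and miR-295 share the full seed AAGUGCU. The arm miR-293-3p carries a different seed, GUGCCGC, and 5 of the 5p arms share CUCAAA at bases 2 to 7. The arm miR-292a-3p is named only. Matches of these seeds to the Rb1, Rbl1 and Rbl2 transcripts were not analysed here.

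The arrays held 45101 probe sets, and their values were linear intensities from 0.057 to 46765, of which the median per array lay between 41.7 and 44.9. The tested set comprised 29167 probe sets with a mean log2 intensity of at least 4. The arrays correlated at 0.963 to 0.969 within groups and at 0.959 to 0.964 between groups on the log2 scale, so no array stood apart. Dicer1 was at 1026, 1143 and 1090.4 with the mimics, against 1129, 1177 and 1137 with the control siRNA, which checks nothing, since all 6 carry the deletion and the part that the probe set reads is not known. The 6 embryonic stem cell markers (Pou5f1, Nanog, Sox2, Zfp42, Dppa5a and Esrrb) were at 3995 or above on every array and 0 of them passed the test. The summed intensity of 6 fibroblast markers was 236 to 314 with the mimics and 316 to 343 with the control siRNA. The collagen genes Col1a1, Col1a2 and Col3a1 were at 32.2 or below on every array, and Lum at 35.5 or below. Dcn, at 36.5 to 101, and Thy1, at 153 to 203, were brighter. The summed intensity of 4 neural ectoderm markers was 1532 to 1809 with the mimics and 1345 to 1509.7 with the control siRNA. Of the 4, 2 passed the test, against 1.83% of all genes by their brightest probe set. Tubb3 was 1 of these 2, higher with the mimics (log2 fold change 0.616, limma adjusted p = 0.0491). Pax6 (562 to 667) and Tubb3 (569.8 to 972) were far brighter than Sox1 (33.7 to 79.7) and Nes (11.6 to 234), so the sum mostly reflects Pax6 and Tubb3. The summed levels of the endoderm markers were 180.3 to 215 with the mimics and 119 to 192 with the control siRNA, with 0 called. Those of the 3 measured mesoderm markers were 208 to 265 with the mimics and 211 to 319 with the control siRNA, and those of the trophectoderm markers 2465 to 2675 with the mimics and 2288 to 3034 with the control siRNA, with 0 called in each. The part of these markers in the results below was not tested. In such bulk samples, fewer cells of a type and less RNA per cell cannot be told apart.

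Rbl2 was the only pocket protein gene with a probe set that passed the test, lower with the miR-290 mimics. The brighter of its probe sets was at 26.2% of the control level, and the dimmer, which did not pass, at 40.5%. Rb1 and Rbl1 were at 73.3% and 80.0% of the control level on their brightest probe sets. There too all mimic arrays lay below all control arrays, but neither passed the test. At an adjusted p under 0.05 in limma, 1 of the 7 tested probe sets of the family was lower and 0 were higher. Across all tested probe sets 0.946% were called lower and 0.343% higher, 1.29% in all. At an unadjusted p under 0.05 in limma there were 4 of the 7, against 20.1% of all tested probe sets. The median log2 fold change (mimic minus control, as throughout) of the 7 was −0.32, and that of all tested probe sets was −0.006.

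**Figure D1:**
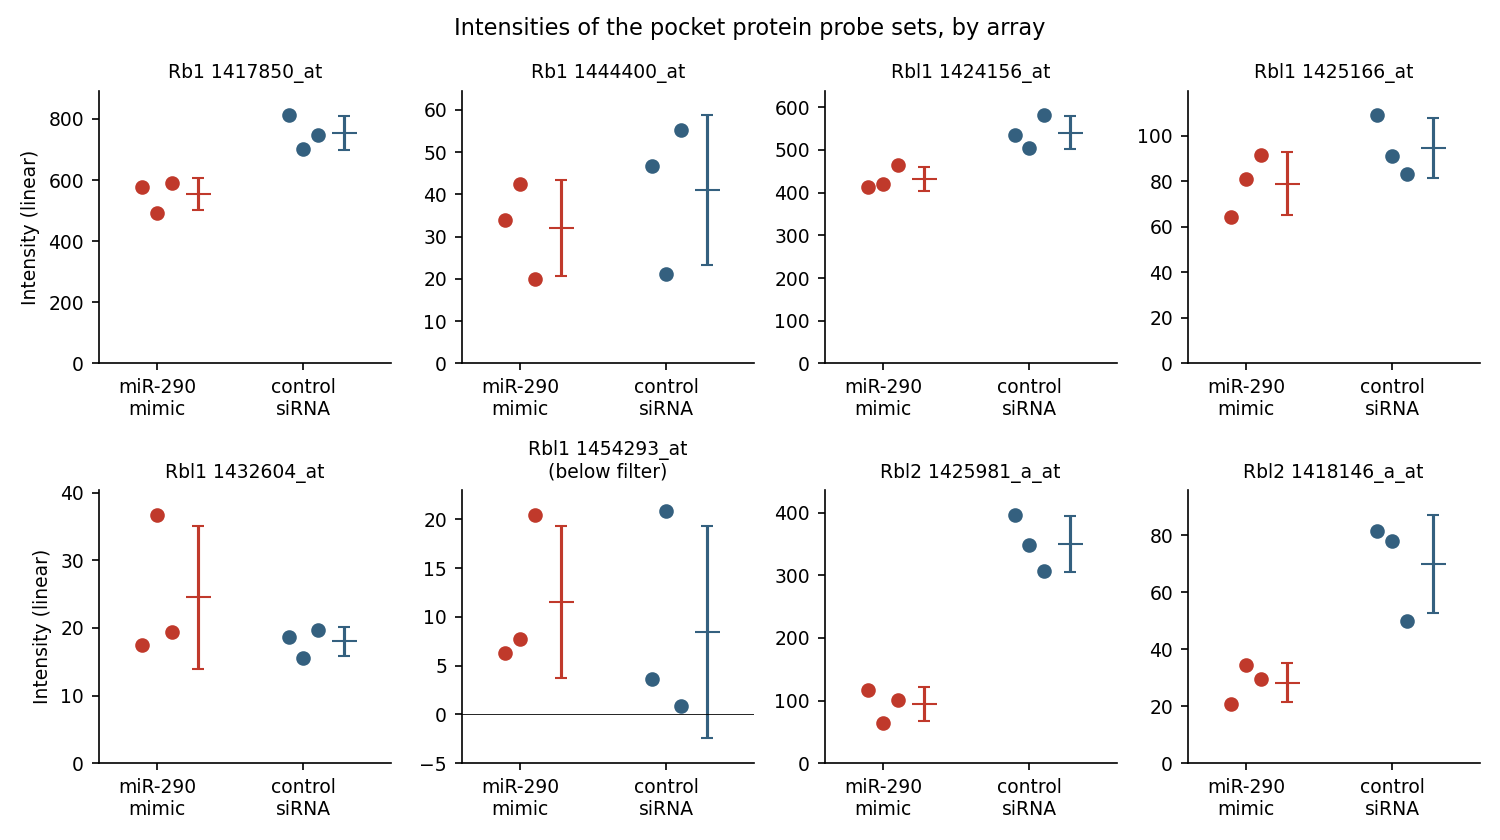
Linear intensity of each pocket protein probe set on each array (points), with the mean and SD of each group of 3 beside them. On both Rbl2 probe sets the 3 mimic arrays lie below all 3 control arrays, as they do on Rb1 1417850_at and Rbl1 1424156_at, while the groups overlap on the 4 others, among them Rbl1 1454293_at, which was below the filter.

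Rbl2 encodes p130, the pocket protein that is most abundant in quiescent cells. Its brighter probe set, 1425981_a_at, had intensities of 117, 64.7 and 101 with the mimics, against 396, 348 and 307 with the control siRNA. The groups did not overlap, and the highest mimic array lay far below the lowest control array. The means were 94.1 ± 26.7 with the mimics and 350.3 ± 44.8 with the control siRNA (SD, n = 3 each), a 3.81-fold fall (log2 fold change −1.93 ± 0.25 SE, 95% interval −2.56 to −1.30, limma adjusted p = 0.0453). This adjusted p lies close to the threshold. It was 0.0539 with median centring of the arrays, 0.132 with no filter on low values and 0.113 to 0.145 with any 1 array left out, where limma with its constant prior variance called at most 1 probe set of the whole array. When limma instead estimated the prior variance robustly as a function of intensity (the level-dependent robust prior), it was 0.000242, and 0.000394 to 0.00299 with any 1 array left out.

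The other Rbl2 probe set, 1418146_a_at, was dimmer, with 20.8, 34.3 and 29.6 with the mimics, against 81.5, 78.1 and 50.0 with the control siRNA. Here too all mimic arrays lay below all control arrays. However, its mimic values lay below the array medians of 41.7 to 44.9. They may hold much background, so the size of this fall is uncertain. The log2 fold change was −1.30 ± 0.28 SE (95% interval −2.00 to −0.60), which did not pass (limma adjusted p = 0.0876) but did with the level-dependent robust prior (limma adjusted p = 0.0397). Both probe sets carry the suffix _a_at, which the manufacturer gives to probe sets that read several transcripts of 1 gene. The brighter minus the dimmer log2 fold change was −0.63 ± 0.48 (SE), a difference not resolved from the spread between arrays (exact permutation p = 0.3, 2-sided, n = 3 each).

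Few probe sets fell as far as the brighter one of Rbl2. Of the 29167 tested, 51 (0.175%) had a lower log2 fold change, and none of the 1000 probe sets nearest to it in mean level did. Its spread within groups was also wide, at an SD of 0.34 on the log2 scale against a median of 0.21 among those 1000, and 88.5% of them had a smaller SD. For the dimmer one, 388 tested probe sets (1.33%) had a lower log2 fold change and its SD of 0.38 lay under the median of 0.45 among its 1000 neighbours in level.

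Rb1 encodes the retinoblastoma protein itself. Probe set 1417850_at gave 576, 493 and 592 with the mimics, against 812, 701 and 747 with the control siRNA. Every mimic array lay below every control array. The means were 553 ± 53.0 with the mimics and 753 ± 55.5 with the control siRNA (SD, n = 3 each), with a log2 fold change of −0.45 ± 0.11 SE (95% interval −0.72 to −0.17, limma adjusted p = 0.112). It passed under the level-dependent robust prior (limma adjusted p = 0.014) and when only probe sets with a mean log2 of at least 6 (0.0392) or 8 (0.0137) were tested. Those stricter filters called 12.2% and 23.3% of the probe sets they kept. Of the tested probe sets, 13.2% had a lower log2 fold change. The dim second probe set, 1444400_at, gave 33.9, 42.5 and 20.0 with the mimics, against 46.6, 21.2 and 55.2 with the control siRNA. These groups overlapped, and the 95% interval of its log2 fold change, −1.49 to 0.88, spans changes in both directions (limma adjusted p = 0.756). Without mimic replicate 3 its log2 fold change was 0.0025.

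Rbl1 encodes p107, which is made in cycling cells and whose gene is itself a textbook E2F target. Probe set 1424156_at gave 412, 419 and 465 with the mimics, against 535, 504 and 581 with the control siRNA. The groups did not overlap. The means were 432 ± 28.9 with the mimics and 539.8 ± 38.6 with the control siRNA (SD, n = 3 each; log2 fold change −0.32 ± 0.094 SE, 95% interval −0.56 to −0.08). It did not pass (limma adjusted p = 0.153), nor did it with the level-dependent robust prior (limma adjusted p = 0.0654), though it did with a filter at a mean log2 of 8 (limma adjusted p = 0.0257). The next probe set, 1425166_at, had 64.2, 80.9 and 91.6 with the mimics, against 109, 91.2 and 83.2 with the control siRNA, and the groups overlapped (log2 fold change −0.27, 95% interval −0.71 to 0.18, limma adjusted p = 0.459). The remaining Rbl1 probe sets were near the floor, where signal and background are not separated. One of them, 1432604_at, was between 15.6 and 36.7 on all 6 arrays, with a log2 fold change of 0.37 that rests on mimic replicate 2: without that array it was 0.04. The other, 1454293_at, was below the filter and lay between 0.912 and 20.9.

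**Figure D2:**
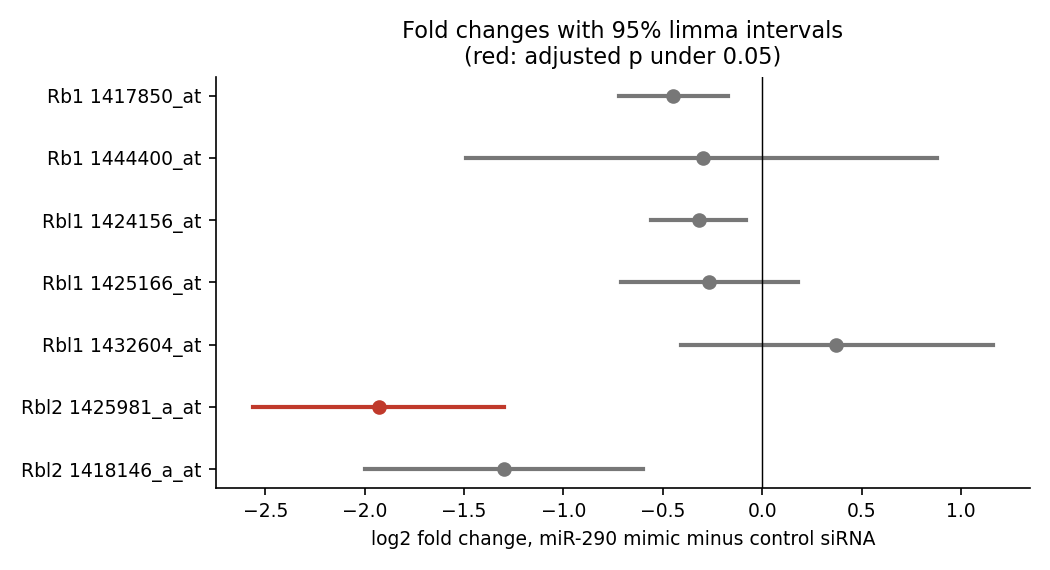
Log2 fold change (mimic minus control siRNA) of the 7 tested probe sets, with the 95% interval from limma. The interval of Rbl2 1425981_a_at runs from −2.56 to −1.30 and that of Rb1 1417850_at from −0.72 to −0.17, and the first does not reach the second. The interval of the dimmer Rbl2 1418146_a_at, from −2.00 to −0.60, does overlap that of Rb1 1417850_at. The wide interval of the dim Rb1 1444400_at, from −1.49 to 0.88, overlaps those of both Rbl2 probe sets.

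In all, 4 of the 7 tested probe sets (both of Rbl2 and the brightest of Rb1 and of Rbl1) had all mimic arrays below all control arrays. Among all tested probe sets 15.5% did so, 13.8% had all mimic arrays above all control arrays, and 29.2% did not overlap in either direction. With the level-dependent robust prior, 3 of the 7 were called lower and 0 higher, while 6.56% of all tested probe sets were called lower and 4.73% higher, 11.3% in all. With that prior and 1 array left out, 1 to 3 of the 7 were lower. All tested probe sets were then called at 7.60%, 9.75% and 6.76% without control replicates 1, 2 and 3, and at 6.95%, 7.79% and 8.41% without mimic replicates 1, 2 and 3. With the constant prior 0 of the 7 were called without any 1 array, and of all tested probe sets 0.00343% without control replicate 3 and 0.0% without any other. Median centring called 0 of the 7 and 0.525% of all, quantile normalization 1 and 1.11%, and an offset of 16 called 1 and 2.15%.

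**Figure D3:**
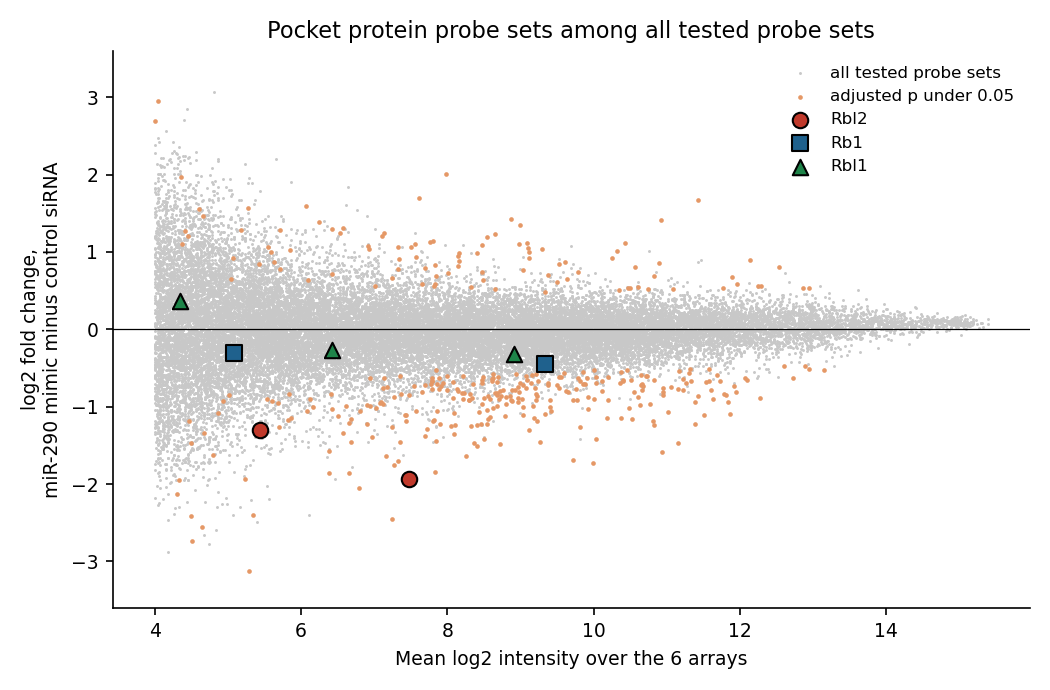
Log2 fold change against mean log2 intensity for all 29167 tested probe sets (grey), those called at an adjusted p under 0.05 (orange) and the 7 of the pocket protein genes. The 2 Rbl2 probe sets lie at −1.93 and −1.30, below the bulk of probe sets of like intensity, whereas those of Rb1 and Rbl1 lie between −0.45 and 0.37.

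The change of Rbl2 was set against that of its relatives within each array, with the brightest probe set of each gene. The log2 fold change of Rbl2 minus that of Rb1 was −1.48 ± 0.20 (SE), and minus that of Rbl1 it was −1.61 ± 0.29 (SE). In both comparisons the within-array differences of the 3 mimic arrays lay outside the range of the 3 control arrays. The exact permutation p was 0.1 for each (2-sided, n = 3 each), which is the smallest that 3 arrays against 3 can give, and 0.15 after Benjamini-Hochberg adjustment over the 3 pairs of genes. Rb1 and Rbl1 differed in log2 fold change by −0.13 ± 0.099 (SE; exact permutation p = 0.3, adjusted p = 0.3, n = 3 each), and their arrays overlapped. Left-out arrays moved the difference between Rbl2 and Rb1 within −1.63 to −1.32 and that between Rbl2 and Rbl1 within −1.82 to −1.38.

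The genes whose pattern over the 6 arrays was most like that of each pocket protein gene were then listed. Likeness was the root mean square distance between log2 intensities, each taken relative to its own control mean, over 10558 genes of moderate or high level, so the nearest genes have similar fold changes by construction. The nearest to Rbl2 were Tgfbr2, the type II TGF-beta receptor gene (distance 0.253, log2 fold change −1.76), and the zinc finger gene Zfp367 (0.319, −1.72). Next came the Wnt ligand gene Wnt9a (0.323, −1.64) and the transcriptional repressor gene Zbtb7a (0.343, −1.54), against a median distance from Rbl2 of 1.39. Of these 4, Zbtb7a did not pass (limma adjusted p = 0.0677). The nearest to Rb1 were Tada2b (0.040), Aqp11 (0.042), Fos (0.044) and Nsd3 (0.045), with log2 fold changes from −0.47 to −0.40, and the nearest to Rbl1 were Sgo2a (0.023), Ern1 (0.029), Fbxl4 (0.031) and Phip (0.031), with log2 fold changes from −0.35 to −0.29. None of these last 8 passed in limma, with adjusted p-values of 0.0724 to 0.203.

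Over 8 lists of the pathway, the 3 members included, 69 genes were measured through their brightest probe set, of which 2 were lower (Rbl2 and Cdkn1a) and 2 were higher (Dnmt3a and Dnmt3l) in limma. Of all 13815 genes 1.38% were called lower and 0.456% higher in this way, 1.83% in all. With the level-dependent robust prior 11 of the 69 were lower and 10 higher, and of all genes 9.43% were lower and 6.20% higher, 15.6% in all. With the constant prior, 1 was lower and 1 higher with median centring, and 0 in either direction with no filter on low values or without any 1 array, so the calls of Cdkn1a, Dnmt3a and Dnmt3l given here also end when an array is left out.

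Of the 10 genes of E2F factors and their DP partners, through which pocket proteins act, 0 passed, and their median log2 fold change was 0.00. E2f1, an activating factor bound by the retinoblastoma protein, had 472, 592 and 422 with the mimics, against 324, 469 and 493 with the control siRNA, and the groups overlapped. E2f4, the main partner of p130, had 335, 340.2 and 403 with the mimics, against 295, 286 and 287 with the control siRNA. Its mimic arrays were all above its control arrays (log2 fold change 0.31, limma adjusted p = 0.175). The brightest 2 of the list, Tfdp1, the main DP partner, and the repressive factor E2f7, gave 0.03 and −0.45 (limma adjusted p = 0.839 and 0.0778). Called lower with the level-dependent robust prior were 3 of the 10 (E2f2, E2f3 and E2f7), against 9.43% of all genes. Of these, E2f2 and E2f3 are named after their values were seen. E2f2, an activating factor, was at 146 ± 29.0 with the mimics and 313 ± 58.9 with the control siRNA (SD, n = 3 each; log2 fold change −1.10, limma adjusted p = 0.0758 with the constant prior). The second probe set of E2f3 went against its brightest one, at 0.42 and −0.42.

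The MuvB core proteins and B-Myb exchange partners with p130 and p107 over the cell cycle. Of these 6 genes 0 passed. Rbbp4, a histone-binding subunit, was at 17111 ± 502 with the mimics and 17099 ± 434 with the control siRNA (SD, n = 3 each). Mybl2, which encodes B-Myb and is a textbook target of p130 and p107 repression, had 3159, 3336 and 3076 with the mimics, against 2399, 2388 and 2474 with the control siRNA. The groups did not overlap, and the log2 fold change was 0.40 ± 0.071 SE, which did not pass (limma adjusted p = 0.0701) but did with the level-dependent robust prior (limma adjusted p = 0.00111). Its dimmer probe set was called higher, by 0.99 on the log2 scale.

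Of 9 genes of G1 cyclins and the kinases that phosphorylate pocket proteins, 0 passed and the median log2 fold change was −0.17. The brightest, Cdk4, the kinase partner of D-type cyclins, and the cyclin gene Ccnd3 gave 0.22 and 0.08 (limma adjusted p = 0.199 and 0.567). With the level-dependent robust prior 2 of the 9 were higher and 2 lower, against 6.20% and 9.43% of all genes. Of 7 genes of CDK inhibitors, which keep pocket proteins in their active form, 1 fell, 0 rose and 6 did not pass. Of all genes 1.38% were called lower and 0.456% higher. The median log2 fold change of the 7 was −0.41. With the level-dependent robust prior 2 of the 7 were lower and 0 higher, against 9.43% and 6.20% of all genes. The 1 called with the constant prior was Cdkn1a, the p21 gene. It was at 2672, 2719 and 2644 with the mimics, against 4989.8, 4932 and 4597 with the control siRNA. Its mimic arrays lay well below its control arrays (limma adjusted p = 0.0287, log2 fold change −0.85 ± 0.071 SE), and its second probe set was called lower too, at −0.70.

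Of 10 measured genes of chromatin proteins that pocket proteins recruit or bind, 0 passed, with a median of −0.05. The brightest, Rbbp7, a histone-binding protein gene, and Hdac2, a histone deacetylase gene, gave 0.02 and −0.11 (limma adjusted p = 0.877 and 0.498). Of the 4 DNA methyltransferase genes 2 were called higher and 0 lower, against 0.456% and 1.38% of all genes. With the level-dependent robust prior 3 of the 4 were higher and 0 lower, against 6.20% and 9.43% of all genes. Because these 4 were listed knowing what the study is about, their direction adds no independent evidence. Dnmt3a, a de novo methyltransferase gene, had 1842, 1749 and 1871 with the mimics, against 864, 1008 and 842 with the control siRNA (limma adjusted p = 0.0338, log2 fold change 1.01 ± 0.098 SE). Dnmt3l, whose product is an inactive partner of that enzyme, had 7742, 8098 and 7646 with the mimics, against 4219, 5016 and 4279 with the control siRNA (limma adjusted p = 0.0432, log2 fold change 0.80 ± 0.096 SE). In both, all mimic arrays lay above all control arrays. Dnmt3b, the other de novo enzyme gene, missed the threshold on the brighter of its probe sets (limma adjusted p = 0.0778, log2 fold change 0.56) and was called higher on the other (0.87). Dnmt3a had 5 tested probe sets that disagreed: 2 were called higher, and those beside the brightest ranged from −0.35 to 1.06. Dnmt1 went the other way, with 3509, 3092 and 3356 with the mimics, against 3611, 3775 and 3929.8 with the control siRNA. All its mimic arrays lay below its control arrays, but it did not pass (limma adjusted p = 0.301, log2 fold change −0.19). Its other probe sets lay between −0.25 and −0.16.

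Of 20 measured textbook E2F target genes, which pocket proteins repress, 0 passed, and the median log2 fold change was 0.06, with a range of −0.41 to 0.28. Pcna, the replication clamp gene, and Mcm7, a subunit gene of the replicative helicase, were the brightest, at 0.14 and 0.13 (limma adjusted p = 0.424 and 0.442). Their 95% intervals were −0.08 to 0.35 and −0.08 to 0.34, both of which hold 0. With the level-dependent robust prior 4 of the 20 were higher and 1 lower, against 6.20% and 9.43% of all genes. All mimic arrays lay above all control arrays in 8 of the 20 and below them in 3. Of all tested probe sets 13.8% and 15.5% did so. These shares count every tested probe set, dim ones included, whereas the 20 genes are read through their brightest one. They are therefore not a like base, and the share over genes was not computed.

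**Figure D4:**
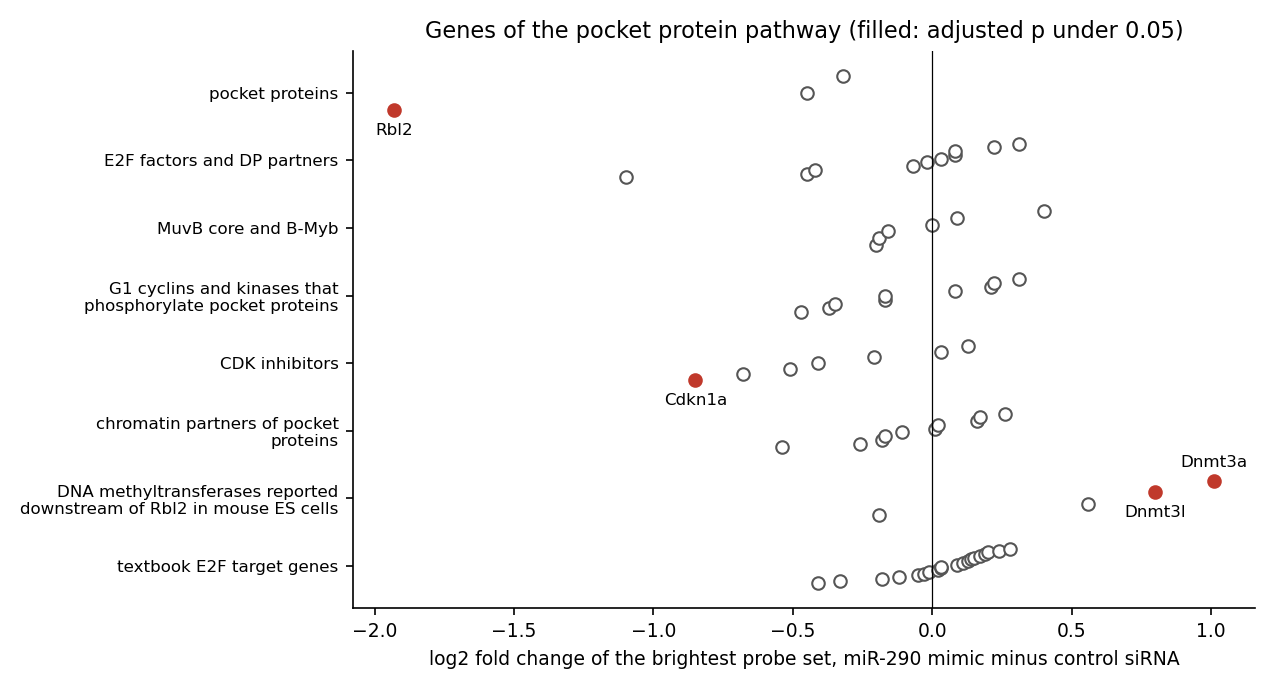
Log2 fold change of the brightest tested probe set of each gene in the 8 pathway lists (1 point a gene, filled where the adjusted p was under 0.05). Rbl2 at −1.93 and Cdkn1a at −0.85 lie to the left and Dnmt3a at 1.01 and Dnmt3l at 0.80 to the right, and the 20 E2F target genes lie between −0.41 and 0.28.

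The promoters of Rbl1 and Rbl2 are shown because the E2F factors that pocket proteins bind act at sites of this kind and Rbl1 is a textbook E2F target. They are the 250 bases before each gene's start in RefSeq's GRCm38.p6 table, on the gene's own strand, at chr2:157204535-157204784 (minus strand) for Rbl1 and chr8:91069807-91070056 (plus strand) for Rbl2, and that of Rb1 is named only. Capitals mark matches to the E2F-type motif TTTNNCGC on either strand:
Rbl1: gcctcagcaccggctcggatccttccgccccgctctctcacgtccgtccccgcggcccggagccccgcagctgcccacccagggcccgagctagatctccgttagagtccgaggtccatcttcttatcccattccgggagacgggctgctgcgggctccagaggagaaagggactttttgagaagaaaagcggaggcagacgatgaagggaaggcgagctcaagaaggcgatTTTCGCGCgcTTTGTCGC
Rbl2: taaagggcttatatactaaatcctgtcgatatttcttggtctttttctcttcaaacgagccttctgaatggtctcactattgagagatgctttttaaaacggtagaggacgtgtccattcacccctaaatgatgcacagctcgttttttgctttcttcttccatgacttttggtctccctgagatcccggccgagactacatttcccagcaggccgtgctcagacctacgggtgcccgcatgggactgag
The Rbl1 promoter held 2 matches that do not overlap, the first starting 18 bases before the gene's start, and the Rbl2 promoter held 0. Of 32851 promoters of this length 4.28% held at least 1 match. The Rbl1 promoter was 63.6% G and C with 24 CG pairs, the Rbl2 promoter was 46.8% with 10, and the medians over all promoters were 52.4% and 6. A match says only that these letters are present, and none says only that they are not in this window.

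**Figure D5:**
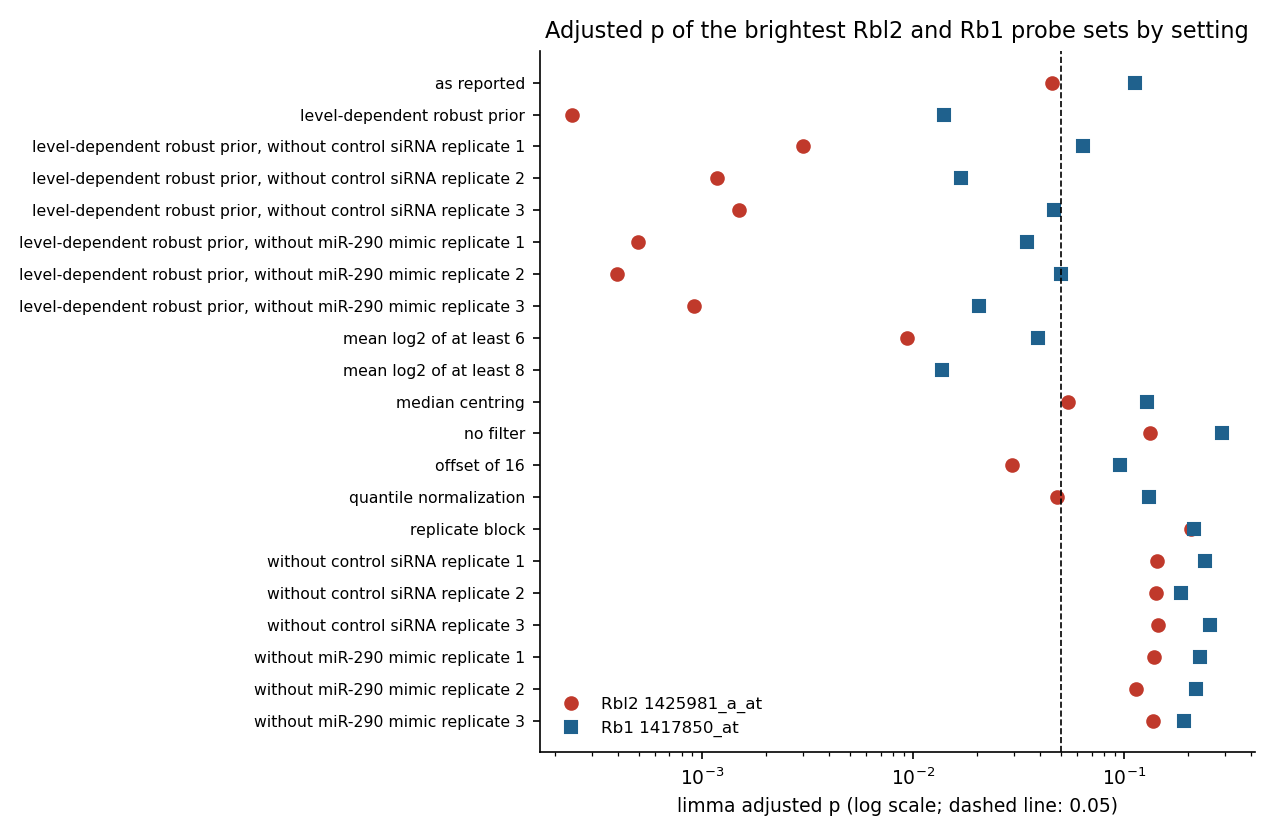
Limma adjusted p (log scale) of the brightest Rbl2 and Rb1 probe sets as reported and under each alternative setting, with the threshold of 0.05 as a dashed line. With the level-dependent robust prior the Rbl2 value is 0.000242 with all arrays and lies between 0.000394 and 0.00299 with 1 array left out. With the constant prior and 1 array left out, the Rbl2 values lie between 0.113 and 0.145.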

How the data were processed

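Per the labels, biotinylated cRNA from each of the 6 samples was read on an Affymetrix array. The authors deposited 1 linear intensity per probe set and array. The submitters' processing notes name GCRMA, which usually gives log2 values, yet the deposited intensities are linear and each array's mean without the lowest and highest 2% is 500, so the step that scaled them is not settled. No detection calls were used, so the lowest intensities may be background alone.

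Genes were named through the platform annotation (34958 probe sets with 1 symbol). Intensities were log2-transformed without an offset, 64 control probe sets and those with a mean log2 under 4 were left out, and 29167 entered the test in limma (version 3.58.1, under R 4.3.3; constant prior variance, no covariates), with Benjamini-Hochberg adjustment over all of them. Nothing in the labels says that replicates were separate cultures, so the p-values describe the spread among these samples alone, which may be technical, and the number of arrays limits the precision. Members and lists were chosen with earlier results of these data known. Named were all member probe sets, Cdkn1a, Dnmt3a, Dnmt3b, Dnmt3l, E2f1, E2f4 and Mybl2, per list up to 4 called genes or else the brightest 2, and for each member the 4 genes of most like pattern. The alternatives were another prior, median centring, quantile normalization, an offset of 16, other filters, left-out arrays and a replicate block; the first combined with left-out arrays was chosen after seeing the data.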

Additional observations from a re-analysis of the deposited data

How the results depend on the processing

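The direction of both Rbl2 probe sets and of the brightest Rb1 and Rbl1 probe sets was the same under every alternative run, with log2 fold changes of −2.11 to −1.68 and −1.53 to −0.95 for Rbl2, −0.50 to −0.37 for Rb1 and −0.38 to −0.26 for Rbl1. The number of called pocket protein probe sets was not stable. It was 1 lower as reported, 0 with median centring, no filter or the replicate block, 0 to 0 without 1 array, 2 when the filter was raised to 6 or 8, 3 with the level-dependent robust prior and 1 to 3 with that prior without 1 array. For Rbl2 1425981_a_at (−1.93) the call ended with median centring (−1.89, limma adjusted p = 0.0539), with no filter (−1.93, limma adjusted p = 0.132), with the replicate block (−1.93, limma adjusted p = 0.208) and without 1 array (−2.11 to −1.68). Rb1 1417850_at was called with the level-dependent robust prior (−0.45; −0.50, −0.48, −0.45 or −0.37 without 1 array, where it was not called without control replicate 1, at 0.064) and with the filter at 6 or 8 (−0.45). Rbl1 1424156_at was called with the filter at 8 (−0.32), and Rbl2 1418146_a_at with that prior (−1.30), also without control replicate 3 (−1.53) or mimic replicate 2 (−1.46). The dim Rb1 1444400_at changed sign, to 0.0025, without mimic replicate 3 under either prior, and lay at −0.72 to 0.0025 over the left-out arrays. At a mean log2 of 8 both Rbl2 probe sets fall below the filter, so the 2 calls there are those of Rb1 and Rbl1.

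Of the pathway genes 2 were lower and 2 higher as reported, against 11 and 10 with the level-dependent robust prior (7, 8, 10 or 13 and 8, 9 or 13 without 1 array), 7 and 6 with the filter at 6, 12 and 11 at 8, 1 and 1 with median centring, 0 and 0 with no filter, with the replicate block and without any 1 array, and 4 higher when a gene's probe sets were averaged. Over the whole array limma called 376 probe sets as reported, 3293 with the level-dependent robust prior, 153 with median centring, 2373 and 3000 with the filters at 6 and 8, and 0 with no filter or the replicate block. No pairing by replicate number was seen: same-numbered samples correlated at −0.00612, 0.0123 and 0.0242 in their deviations from the group means. Such values do not exclude that same-numbered samples shared a culture or a day, which the labels do not say. The cause of these differences was not tested. Low intensities limit what can be said of the dim probe sets.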
